A study of Danio rerio with 24 samples.

Results

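The development of unexposed zebrafish between 48 hours post-fertilization (hpf) and 5 days post-fertilization (dpf) was followed in 6 of the 24 libraries of the series. These are all 3 libraries of whole embryos at 48 hpf and all 3 libraries of whole larvae at 5 dpf that the labels give as treated with DMSO, the solvent in which the other groups received PCB126, a dioxin-like polychlorinated biphenyl. Both groups carry the solvent, neither received PCB126, and the labels name no strain, allele or transgene. Embryos were raised in Danieu's solution and larvae, per the labels, received rotifers. The 3 libraries of each group are biological replicates, per the series text. The number of fish per library, the time in solvent and the hour at which fish were taken were not stated in the sources used here. Total RNA was depleted of ribosomal RNA and sequenced with strand information, and the deposited values are reads per gene. As a second set for the same ages, 6 libraries of fish exposed to 0.3 nM PCB126 (3 at 48 hpf, 3 at 5 dpf) were fitted separately.

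In this interval the zebrafish turns from an embryo that lives on yolk inside or just out of its chorion into a free-swimming larva that hunts. The hatching gland releases enzymes that dissolve the chorion and then disappears, the yolk is used up, the gut opens and the exocrine pancreas begins to make digestive enzymes, and photoreceptors, myelin and synapses mature. Dividing progenitors in the brain and retina become fewer as the cells differentiate, and primitive red cells from the early embryo stop making globin. This is textbook background and was not measured here.

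The 48 hpf libraries held 16169218 to 17750955 reads and the 5 dpf libraries 12480715 to 14932821. Levels are given as CPM, read counts scaled by the TMM-adjusted library size, and are compared between ages within a gene, never between genes. A CPM value with ± is a mean and SD over the 3 libraries of an age, and a pair of CPM values given for a gene without ± holds the means at 48 hpf and 5 dpf. A log2 fold change with ± carries its SE, and a bare value in parentheses after a gene is its log2 fold change, 5 dpf over 48 hpf. Every SE was derived from the test's F value, and for genes with few reads at 1 age it can be too small. Of 21165 genes with enough reads to test, 7323 were higher (34.6%) and 6979 lower (33.0%) at 5 dpf with an adjusted p under 0.05 in edgeR's quasi-likelihood test with Benjamini-Hochberg adjustment, the source of every adjusted p below. At least 2-fold higher were 3868 genes (18.3%) and at least 2-fold lower 1806 (8.53%). Large rises outnumbered large falls: 893 genes rose and 102 fell at least 8-fold, and 362 rose and 18 fell at least 32-fold. In 71.8% of the genes tested the 3 libraries of 1 age did not overlap the 3 of the other. Log2 CPM correlated at 0.986 to 0.991 between libraries of the same age and at 0.811 to 0.834 between ages. The 48 hpf libraries differed more among themselves than the 5 dpf libraries, with a chi-square per degree of freedom of 8.71 to 23.6 against 2.5 to 5.91. Replicate 2 of 48 hpf was farthest from the others, with more reads on muscle genes (7.67% against 6.08% and 5.97%) and on the bone list (0.733% against 0.413% and 0.452%) and fewer on epidermal genes (2.29% against 2.88% and 3.29%). Without it, 4048 genes were at least 2-fold higher and 1911 at least 2-fold lower.

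Genes were described in 49 lists of tissue markers and cell functions. In 11 lists the median log2 fold change of the members tested was at least 1, in 4 it was at most -1, and in 34 it lay between. The plot of list shares gives each list's genes that changed at least 2-fold beside the 18.3% and 8.53% of all genes tested. A gene with hardly any reads at 48 hpf could enter the test only through its reads at 5 dpf, and had to come out higher; the number of such members is given beside the lists that hold many. In RNA of whole fish, a change in the number of cells of a type and a change in RNA per cell cannot be told apart.

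**Figure D1:**
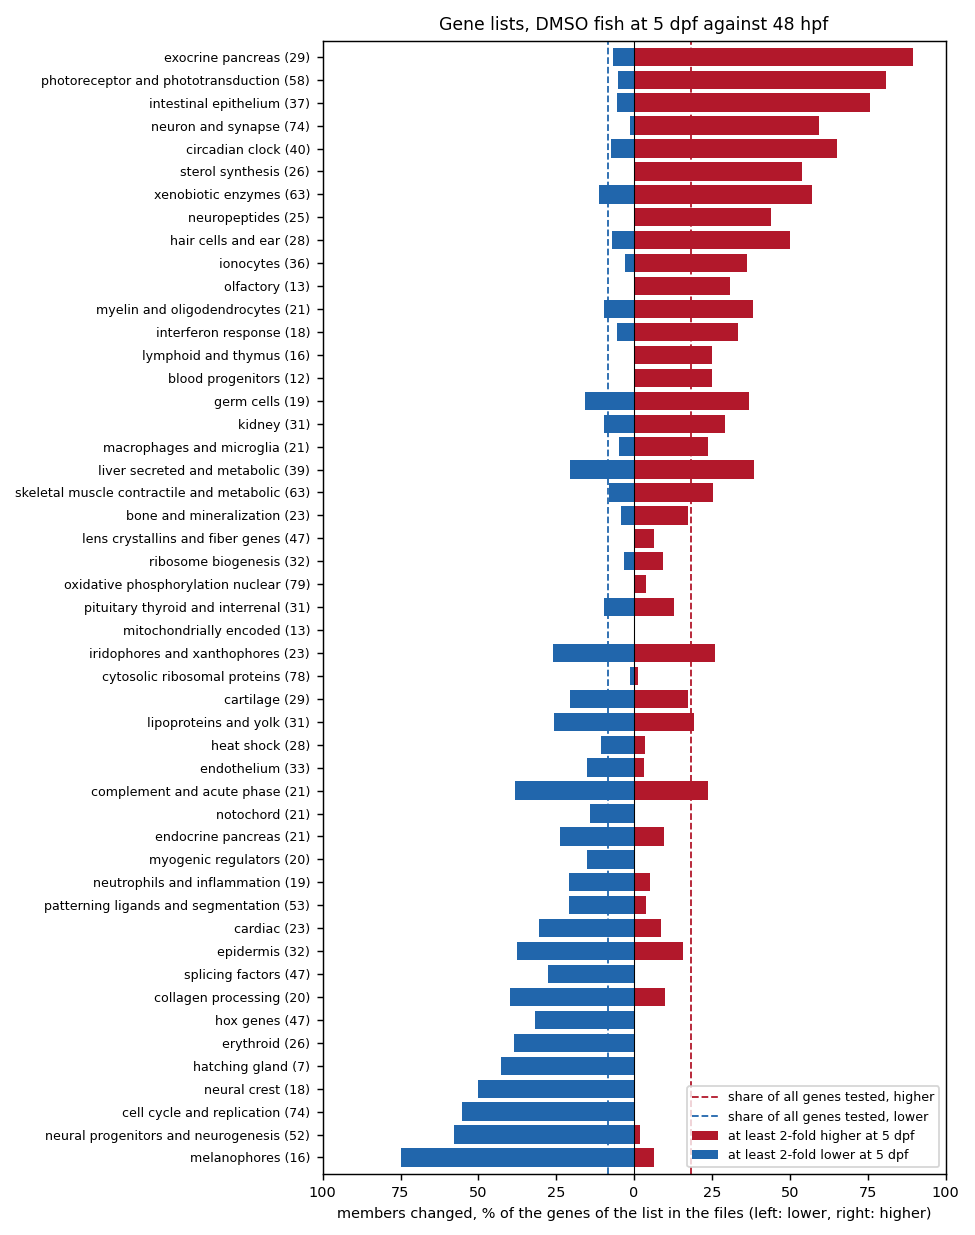
Percent of each list's genes in the files that were at least 2-fold higher (red, right) or at least 2-fold lower (blue, left) at 5 dpf than at 48 hpf in DMSO fish, with the number of genes in parentheses; dashed lines mark the 18.3% and 8.53% of all 21165 genes tested. The bars also count genes with too few reads to test, which the dashed lines leave out. The exocrine pancreas, photoreceptor and intestinal lists lie at the top, and the melanophore, cell cycle and neural progenitor lists at the bottom.

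The digestive enzymes of the exocrine pancreas were among the largest rises. The trypsin gene prss1 (ENSDARG00000042993) stood at 2.08, 1.72 and 1.07 CPM at 48 hpf and 1444, 1288 and 1179.6 CPM at 5 dpf, an 804-fold rise (log2 fold change 9.65, SE 0.21, adjusted p = 1.02e-12). Its relative prss59.2 (ENSDARG00000073742) stood at 0.44, 0.118 and 0.179 CPM at 48 hpf and 1464, 1332 and 1186 CPM at 5 dpf (log2 fold change 12.37, SE 0.25, adjusted p = 5.48e-13). In both genes every 5 dpf library lay far above every 48 hpf library. The ages did not overlap in 71.8% of all genes tested. The amylase amy2a, the chymotrypsin-like ctrl and ctrb.3, the lipase CEL (ENSDARG00000017490) and the zymogen granule gene SYCN (ENSDARG00000103687) had between 0 and 3 reads in all 48 hpf libraries together. The first 4 reached means of 536, 479.7, 916 and 241 CPM at 5 dpf, in the same order. For SYCN, with no read at 48 hpf, the rise was at least 1675-fold when 3 reads over the group are taken as the floor. The elastases ela2l, ela3l and CELA1 (ENSDARG00000017314) rose from 0.0792 to 723 CPM, 0.0803 to 565 CPM and 0.144 to 823 CPM.

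Of the 29 pancreas genes in the files, 26 were at least 2-fold higher, 2 at least 2-fold lower and 1 had too few reads; 22 were tested through their 5 dpf reads alone. The lower ones were PTF1A (log2 -1.04 ± 0.19), a transcription factor of pancreatic and neural progenitors, and the amylase copy amy2al1 (log2 -1.61 ± 0.43). Together the list took 0.00245%, 0.00205% and 0.00183% of the reads at 48 hpf and 1.12%, 0.98% and 0.95% at 5 dpf. Of the islet hormones, insulin (ins) stood at 8.12, 4.91 and 7.87 CPM at 48 hpf and 9.36, 10.4 and 8.74 CPM at 5 dpf, close together but not overlapping (log2 fold change 0.45, SE 0.18, adjusted p = 0.0371). Its call was lost without replicate 2 of 48 hpf (adjusted p = 0.131) and without replicate 1, 2 or 3 of 5 dpf (0.0793, 0.131 and 0.0531), and in the fit of 24 libraries (0.0811). The glucagon gene gcga rose with a log2 fold change of 0.65 (SE 0.18, adjusted p = 0.00663), and the prohormone convertase PCSK1 rose from 8.54 ± 3.15 to 41.8 ± 2.02 CPM. A second glucagon gene, GCG, was not called, but was lower without replicate 2 of 48 hpf (log2 -0.59, adjusted p = 0.0138). Over all genes tested, 34.6% were higher and 33.0% lower, and 18.3% and 8.53% were so at least 2-fold. In the endocrine list more genes fell than rose: of 20 tested, 6 were higher and 10 lower, 2 and 5 of them at least 2-fold (median -0.43). The falls of at least 2-fold were those of both INSM1 genes (-1.33 and -1.79), ISL1 (-1.02) and MNX1 (-1.31), transcription factors that neurons use too, and of the zinc transporter SLC30A8 (-1.78).

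Most genes of the absorptive intestine rose. VIL1 (ENSDARG00000040466), the actin bundler villin of the brush border, stood at 5.1, 4.73 and 3.46 CPM at 48 hpf and 361, 311 and 323 CPM at 5 dpf (log2 fold change 6.23, SE 0.15, adjusted p = 1.98e-12), with the 3 libraries of each age close together and far from the other age. The fatty acid binding protein FABP2 rose from 74.2 ± 20.6 to 425 ± 37.8 CPM (5.72-fold, adjusted p = 8.57e-07). The peptide transporter SLC15A1 (ENSDARG00000044528) rose from 0.223 to 163 CPM, and its second gene (ENSDARG00000100315) from 0.564 to 17.7 CPM. The chitinase chia.2 went from 0.463 to 1141 CPM, and all 4 chitinase genes of the list rose. ENPP7 (ENSDARG00000053526), an enzyme of sphingomyelin digestion that the list does not hold, had no read at 48 hpf and a mean of 56.1 CPM at 5 dpf (at least 928-fold higher). Further large rises outside the lists were those of the astacin metalloprotease c6ast4 (277 CPM at 5 dpf), the receptor adgrg4a (36.9), the phosphate transporter SLC34A2 (32.8) and the cathepsin ctsbb (32.1), none of which had a read at 48 hpf. Of the 37 genes of the intestinal list, 28 were at least 2-fold higher and 2 at least 2-fold lower, and 18 were tested through 5 dpf alone. The lower ones belong to mucous cells, the mucin muc5.2 (-1.54 ± 0.19 on the log2 scale, ± SE) and AGR2 (-1.07 ± 0.11), a folding factor of mucins.

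Liver genes moved in both directions. The liver fatty acid binding protein fabp10a (ENSDARG00000038439) stood at 3.27, 2.66 and 2.68 CPM at 48 hpf and 260.3, 253 and 224 CPM at 5 dpf, an 85.6-fold rise with no overlap (log2 fold change 6.42, SE 0.13, adjusted p = 6.25e-13). The thyroid hormone carrier TTR (0.139 to 41 CPM), the vitamin D binding protein GC (0.428 to 80.9 CPM) and the fetuin ahsg2 (0.021 to 22.2 CPM) were near 0 at 48 hpf and present in every 5 dpf library. Tyrosine aminotransferase (TAT, 3.19 to 111 CPM), both AGXT genes (log2 6.57 and 3.01) and urate oxidase (uox, 3.58) rose, and so did the gluconeogenic PCK1 (63.9 to 380.3 CPM, log2 2.57 ± 0.16). Several plasma proteins already high at 48 hpf went the other way. The 3 fibrinogen chains fell by about the same amount (fga -1.01, FGB -1.24, FGG -1.05), both vitronectins fell (VTN, -1.37 and -1.17), and the transferrin tfa did not pass (949 ± 208 against 826 ± 108 CPM, adjusted p = 0.29, but called lower at an adjusted p of 0.00641 without replicate 2 of 48 hpf). The urea cycle enzyme CPS1 fell most in the list (27.6 to 5.4 CPM, log2 -2.35 ± 0.16). Of 39 liver genes, 6 of them tested through 5 dpf alone, 15 were at least 2-fold higher and 8 at least 2-fold lower. Of all genes tested, 18.3% and 8.53% were so.

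Most complement genes fell. The central component c3a.1 (ENSDARG00000012694) stood at 1002, 784 and 727 CPM at 48 hpf and 187, 332 and 205 CPM at 5 dpf (log2 fold change -1.79, SE 0.22, adjusted p = 4.74e-05), lower in all larvae than in all embryos. Of 20 complement and acute phase genes tested, 8 were at least 2-fold lower, among them c4b (-2.15), c5 (-1.29), c9 (-1.41), cfb (-1.36), the regulator cfh (-1.53) and MASP1 (-2.05). The 5 that were at least 2-fold higher included the C3 copy c3a.2 (6.25 to 35.8 CPM), the lectin mbl2 (0.58 to 15.7 CPM), factor D (cfd, 2.15) and the iron hormone hamp (1.57). Of all genes tested, 8.53% were at least 2-fold lower and 18.3% at least 2-fold higher.

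Apolipoproteins, which carry yolk and dietary lipid, mostly fell as well. The high-density lipoprotein gene apoa1a (ENSDARG00000012076) stood at 4039.9, 2929 and 4488 CPM at 48 hpf and 889, 919.9 and 597 CPM at 5 dpf (log2 fold change -2.25, SE 0.20, adjusted p = 9.36e-07). Its relative apoa1b (ENSDARG00000101324) fell less, from 4160 ± 982 to 2254 ± 162 CPM (log2 -0.88 ± 0.17). The gene apobb.2 (ENSDARG00000075016), one of the apolipoprotein B genes, dropped from 213 ± 27.6 to 9.54 ± 3.82 CPM, a 22.3-fold fall, while apobb.1 fell by 0.68 on the log2 scale. Of 15 apolipoprotein genes tested, 12 were lower and 2 higher, apoa4b.2 (log2 0.85) and apoc4, which had no read at 48 hpf. Among the other members, the low-density lipoprotein receptor ldlra (6.06 to 72.2 CPM), the lipoprotein assembly factor MTTP (log2 1.56) and the hepatic lipase LIPC (no read at 48 hpf, 2.05 CPM at 5 dpf) rose, and the lipid transfer gene CETP fell (log2 -1.41). Of the lipoprotein lipase genes LPL, one rose (ENSDARG00000087697, log2 1.02) and the other stood at 4.05 ± 1.13 against 3.63 ± 0.657 CPM (ENSDARG00000098720, adjusted p = 0.556). Of 7 vitellogenin genes, which encode the maternal yolk proteins, only vtg7 had enough reads to test, and it fell (2.22 to 0.118 CPM).

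Photoreceptor genes rose broadly. The green cone opsin opn1mw1 (ENSDARG00000097008) stood at 0.315, 0.0591 and 0.119 CPM at 48 hpf and 463, 494 and 542 CPM at 5 dpf (log2 fold change 11.52, SE 0.23, adjusted p = 5.05e-13), and the blue cone opsin opn1sw2 went from 0.507 ± 0.184 to 407 ± 12.6 CPM. The libraries of the 2 ages did not overlap in either gene. Cone transducin GNAT2 rose from 1.07 to 440.3 CPM and rod transducin GNAT1 from 1.81 to 55.1 CPM; the cone phosphodiesterase PDE6C rose 199-fold and the disc rim gene PRPH2 (ENSDARG00000014840) 275-fold. Of the 58 genes of the list, 47 were at least 2-fold higher, 25 of the tested genes having entered through 5 dpf alone. The 3 that were at least 2-fold lower included the factors that specify photoreceptors, crx (53, 62.5 and 65.6 CPM at 48 hpf and 20, 19 and 19.9 CPM at 5 dpf; log2 fold change -1.62, SE 0.098, adjusted p = 1.45e-08) and NR2E3 (29.6 to 6.67 CPM, log2 -2.15 ± 0.11). The third was 1 of the RPE65 genes (ENSDARG00000094752, log2 -1.87), while another RPE65 gene (ENSDARG00000007480, log2 2.36) rose. Of 38 lens genes tested, 15 were higher and 5 lower, 3 and 0 of them at least 2-fold. Of all genes tested, 34.6% were higher and 33.0% lower. Among the 28 crystallin genes tested, 15 were higher and 1 lower (log2 -0.567 to 6.81). CRYAA stood at 39.1 ± 2.08 against 44.3 ± 5.53 CPM (adjusted p = 0.124, but 0.0206 without replicate 3 of 5 dpf and 0.0398 with total-count scaling) and cryba1b at 607 ± 38.4 against 612 ± 26.7 CPM.

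**Figure D2:**
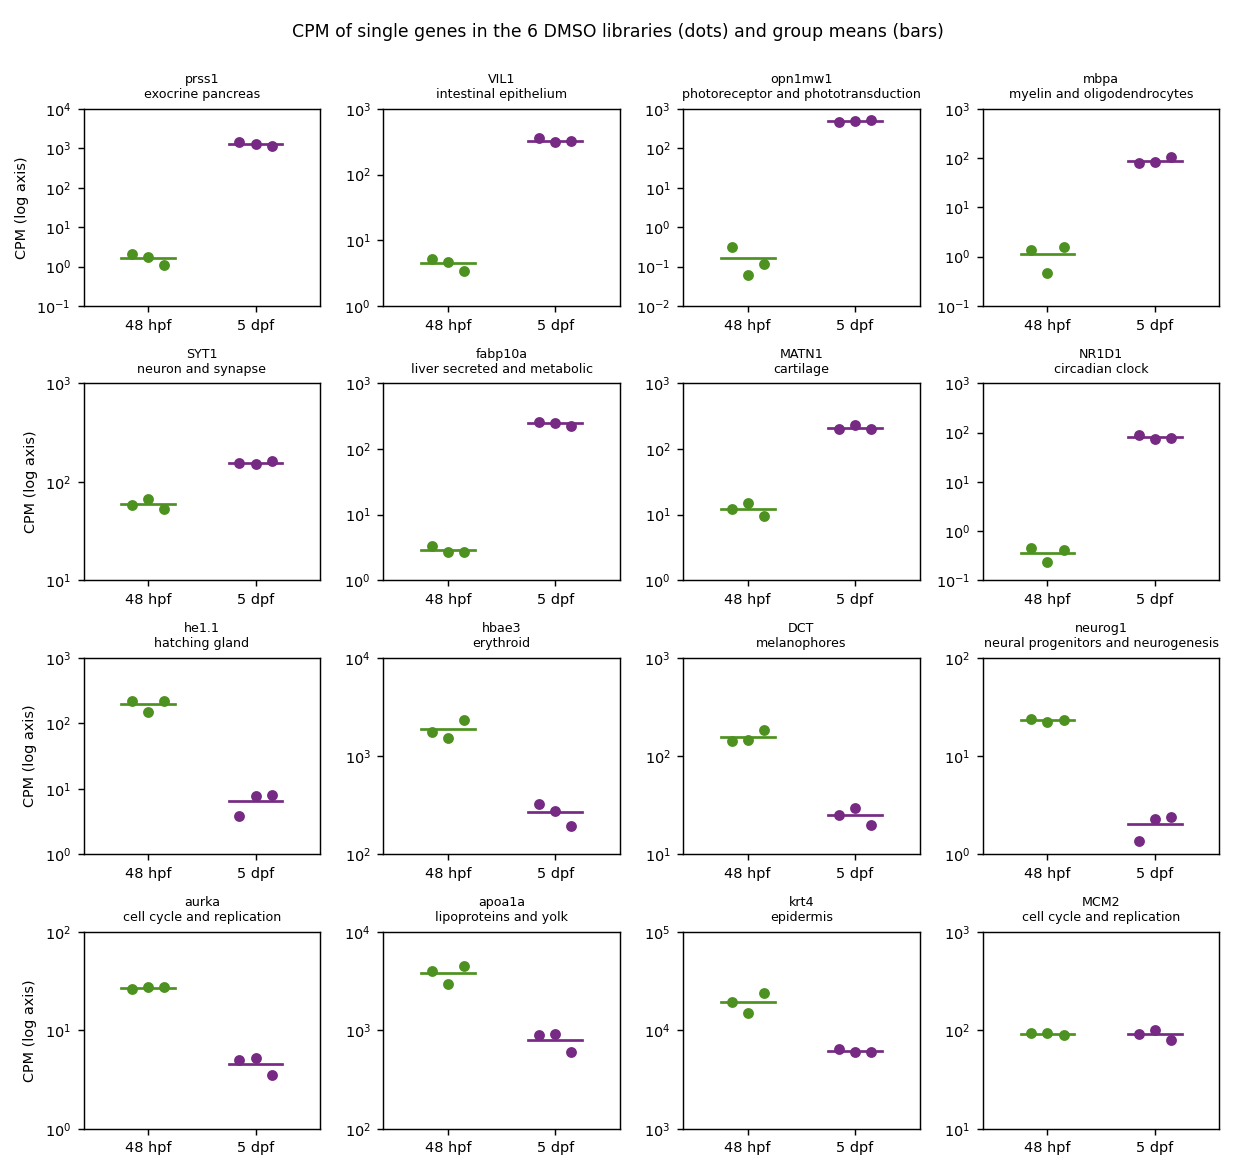
CPM on a log axis of 16 genes in the 3 libraries of each age (dots; bar, mean of the 3), each panel with its gene and list. The libraries of the 2 ages are apart in every panel but that of MCM2, where they overlap.

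Most genes of mature neurons rose and most of neural progenitors fell. Synaptotagmin (SYT1, ENSDARG00000030614), the calcium sensor of transmitter release, stood at 58, 66.1 and 53.4 CPM at 48 hpf and 156, 150.4 and 163 CPM at 5 dpf (log2 fold change 1.4, SE 0.097, adjusted p = 4.92e-08). The release protein SNAP25 rose from both of its genes (ENSDARG00000020609, log2 1.05; ENSDARG00000058117, 1.48). All 8 glutamate receptor genes of the list rose, with log2 fold changes of 0.93 to 2.88, as did its 4 GABA receptor genes (1.65 to 3.21). The kinase CAMK2A, known from synaptic plasticity, rose from 3.79 ± 0.411 to 32.9 ± 2.68 CPM. Of 72 neuron and synapse genes tested, 44 were at least 2-fold higher and 1 at least 2-fold lower, a STMN2 gene (ENSDARG00000070537, -1.05). Counting smaller changes too, 64 were higher and 4 lower. Among genes of young neurons, gap43, a growth cone protein, fell (46.2 to 24.3 CPM, log2 -0.93 ± 0.085) and the RNA-binding ELAVL4 stood at 232 ± 42.3 against 233 ± 3.26 CPM (adjusted p = 0.947).

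Among progenitor genes, the proneural factor neurog1 (ENSDARG00000056130) stood at 23.9, 22.2 and 23.3 CPM at 48 hpf and 1.38, 2.32 and 2.42 CPM at 5 dpf, an 11.3-fold fall (log2 fold change -3.52, SE 0.16, adjusted p = 1.15e-09). The retinal factor atoh7 fell from 9.71 to 1.87 CPM, the Notch ligand dlb by 2.32 on the log2 scale, the intermediate filament nes, a progenitor marker, by 2.09, and both NOTCH1 genes by 1.16 and 1.5. The stem cell factors SOX3, sox19a and SOX2 fell with log2 fold changes of -1.71 ± 0.092, -1.65 ± 0.08 and -0.78 ± 0.08. Of 52 genes tested, 30 were at least 2-fold lower and 1 at least 2-fold higher, rx1 (8.3 to 38.4 CPM), a retinal homeobox gene also used by photoreceptors. The list median was -1.20.

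Myelin genes diverged within the list. The myelin basic protein gene mbpa (ENSDARG00000036186) stood at 1.38, 0.473 and 1.61 CPM at 48 hpf and 79.3, 83 and 106 CPM at 5 dpf (log2 fold change 6.27, SE 0.25, adjusted p = 1.04e-08), while its copy mbpb, already present at 48 hpf, rose from 49.5 to 86.4 CPM. The adhesion gene mag (3.26) and the claudin cldnk (3.00) rose, and the lineage factor OLIG2 fell (21.5 to 6.75 CPM, log2 -1.67 ± 0.11). Of 21 genes, 12 were higher and 5 lower, 8 and 2 of them at least 2-fold. Of all genes tested, 34.6% were higher and 33.0% lower, 18.3% and 8.53% at least 2-fold.

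Many neuropeptide and hair cell genes also rose. Of 21 neuropeptide genes tested, 5 of them through 5 dpf alone, 11 were at least 2-fold higher and none at least 2-fold lower. Corticotropin-releasing hormone (CRH) stood at 0.692, 1.18 and 1.07 CPM at 48 hpf and 3.56, 4.92 and 4.84 CPM at 5 dpf (log2 fold change 2.15, SE 0.25, adjusted p = 5.87e-06), and the appetite peptide NPY went from 0.81 to 4.76 CPM. Among genes of the hair cell and ear list, the tip link genes PCDH15 (ENSDARG00000008127 and ENSDARG00000098257) rose by 2.03 and 2.31 on the log2 scale and the scaffold USH1C from 1.44 to 18.1 CPM, while oc90, an otolith protein, fell from 9.67 ± 1.38 to 1.03 ± 0.116 CPM. The tissue in which these genes changed was not measured. Of 25 hair cell and ear genes tested, 5 of them through 5 dpf alone, 14 were at least 2-fold higher and 2 lower.

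Most genes of the circadian clock were higher in larvae. The nuclear receptor NR1D1 (ENSDARG00000033160), a repressor in the clock, stood at 0.44, 0.237 and 0.417 CPM at 48 hpf and 90, 73 and 76.4 CPM at 5 dpf (log2 fold change 7.75, SE 0.18, adjusted p = 1.53e-12). All 4 period genes rose, from 1.64 for PER1 (ENSDARG00000012499) to 4.86 for the other PER1 gene (ENSDARG00000056885). All 6 genes of the dbp, tef and hlf output factors rose as well (1.25 to 4.2). Of the activators, CLOCK (ENSDARG00000003631, log2 1.16) and npas2 (3.03) rose, while both BMAL1 genes were at 30 ± 0.918 against 24.2 ± 0.692 CPM (ENSDARG00000006791, adjusted p = 0.00529) and 23.1 ± 1.2 against 22.1 ± 1.65 CPM (ENSDARG00000035732, adjusted p = 0.567), and bmal2 fell from 57.3 ± 1 to 14.9 ± 1.54 CPM (log2 -1.95 ± 0.094). Of 40 clock genes, 31 were higher and 6 lower. At least 2-fold higher were 26, and at least 2-fold lower were 3, bmal2, nfil3-5 (-1.82) and nr1d4b (-1.15). These genes cycle over the day, and the hour of sampling at either age is not given in the sources used here, so age and hour cannot be told apart.

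**Figure D3:**
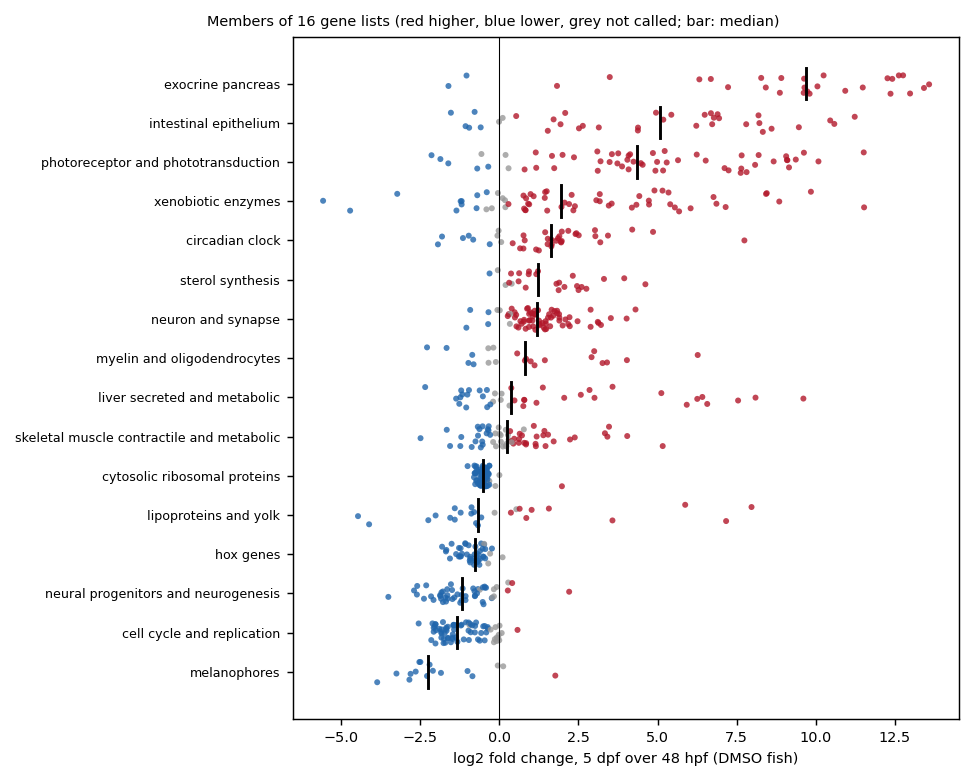
Log2 fold change (5 dpf over 48 hpf, DMSO fish) of every tested member of 16 lists, one dot per gene, red where higher and blue where lower with an adjusted p under 0.05, grey where not called; the black bar is the list's median. Ribosomal protein genes sit close together just below 0, whereas liver, lipoprotein and xenobiotic genes spread to both sides.

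Most genes of cell division fell. Aurora kinase aurka (ENSDARG00000012485) stood at 26, 27.3 and 27.6 CPM at 48 hpf and 4.94, 5.21 and 3.51 CPM at 5 dpf (log2 fold change -2.56, SE 0.13, adjusted p = 3.33e-09), with no overlap. The 3 cyclin B genes fell by 1.48 to 2.16 on the log2 scale and the 3 mitotic kinesins by 1.73 to 2.02. The proliferation marker mki67 fell from 434 ± 36 to 160.3 ± 8.94 CPM and TOP2A, which untangles replicated DNA, by 1.45. Of 6 MCM helicase genes tested only MCM7 was called (log2 -0.58 ± 0.13), and MCM2 stood at 93.8, 94.7 and 88.7 CPM at 48 hpf and 92.8, 100.1 and 80.1 CPM at 5 dpf, overlapping between ages (log2 fold change -0.022, SE 0.095, adjusted p = 0.853). Among 72 genes tested, 41 were at least 2-fold lower and none at least 2-fold higher (median -1.35); a cyclin D gene, CCND2 (ENSDARG00000070408, 0.57), was the member that rose.

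Of 78 cytosolic ribosomal protein genes, 74 were lower and 1 higher, by a median of -0.52; RPLP0, a stalk protein of the large subunit, stood at 2886, 2456 and 3418 CPM at 48 hpf and 2045, 2054 and 1839 CPM at 5 dpf (log2 fold change -0.56, SE 0.14, adjusted p = 0.00334). The list took 5.9% to 7.63% of the reads at 48 hpf, lowest in replicate 2, and 4.82% to 5.11% at 5 dpf. In the fish exposed to 0.3 nM the median was -0.27. Of 32 genes that build ribosomes, 23 were higher and 1 lower, with the helicase DDX21 rising from 94.5 ± 8.84 to 218 ± 16.7 CPM and npm1b falling (-1.08). Of 46 splicing genes tested, 38 were lower and 1 higher, and the 8 genes of the Sm core of spliceosomal particles fell by 0.90 to 1.44 on the log2 scale. Transcripts of the mitochondrial genome were higher in 11 of 13 genes and by at most 0.79; only 6 passed without replicate 1 of 5 dpf and 7 without replicate 3. Nuclear genes of oxidative phosphorylation were 9 higher and 27 lower of 79, the latter close to the 33.0% of all genes tested, and only 14 lower with total-count scaling or without replicate 3 of 48 hpf, and 15 without replicate 1 of 5 dpf.

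Hatching gland genes fell. The protease he1.1 (ENSDARG00000023656), the hatching enzyme that dissolves the chorion, stood at 216, 150.1 and 215 CPM at 48 hpf and 3.89, 7.75 and 8.2 CPM at 5 dpf (log2 fold change -4.89, SE 0.26, adjusted p = 3.23e-07). The related he1.2 fell from 30.2 ± 6 to 0.874 ± 0.243 CPM, and the cathepsin ctslb (ENSDARG00000074306), at 22, 14.4 and 23.2 CPM at 48 hpf and 0, 0 and 0 CPM at 5 dpf, was at least 277-fold lower, counting 3 reads over the larvae as the floor. All 7 genes of the list fell, the shared secretory genes CD63 and XBP1 by only 0.35 and 0.25 on the log2 scale. Other large falls were the cathepsin ctslb.4 (40.3 to 0.31 CPM), afp4 (21.7 to 0.312 CPM), the zinc transporter SLC39A5 (25 to 0.489 CPM), ponzr4 (11.8 to 0.669 CPM), aep1 (280.4 to 14.9 CPM), jac1, which stood at 4.59, 6.92 and 19.3 CPM at 48 hpf and 0.461, 0.869 and 0.39 CPM at 5 dpf, and fabp4b (29.6 to 0.534 CPM), a fatty acid binding protein.

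Among skin genes, the keratin krt4 (ENSDARG00000017624) of the outer layer stood at 19292, 14994 and 23871 CPM at 48 hpf and 6394, 6022 and 6061 CPM at 5 dpf (log2 fold change -1.65, SE 0.18, adjusted p = 3.2e-06), lower in all larvae. The keratins cyt1 and cyt1l (-1.71 and -1.59), the calcium-binding icn2 (-1.65), anxa1c (-2.16) and TP63 (-1.12), a factor of basal keratinocytes, fell too. Other keratins rose, krt92 from 88.1 ± 15 to 414 ± 19.1 CPM and krt15 from 111 to 284 CPM. Of 32 epidermal genes, 12 were at least 2-fold lower and 5 at least 2-fold higher, beside 8.53% and 18.3% of all genes tested. Genes of ionocytes, the salt-transporting cells of the skin and gill, mostly rose: all 4 ammonia transporter genes of the Rh family rose (log2 1.74 to 8.37), as did the chloride cotransporter slc12a10.2 (16.8 to 50.9 CPM) and the sodium pump atp1a1a.4 (56.4 to 353 CPM). Of the ionocyte factors, foxi3b fell (log2 -0.46 ± 0.13) and foxi3a stood at 8.23 ± 1.25 against 7.03 ± 0.617 CPM (adjusted p = 0.198, but 0.0455 without replicate 2 of 48 hpf). Of 35 genes tested, 23 were higher and 3 lower. At least 2-fold higher were 13, and 1 was at least 2-fold lower, SLC4A1 (ENSDARG00000012881), which is also the anion exchanger of red cells.

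Most melanin genes fell. Dopachrome tautomerase (DCT, ENSDARG00000006008) stood at 142, 145 and 184 CPM at 48 hpf and 25, 29.7 and 20.1 CPM at 5 dpf (log2 fold change -2.65, SE 0.15, adjusted p = 1.77e-08), tyrosinase (TYR) went from 87.8 ± 19.1 to 15.5 ± 2.03 CPM and the melanosome protein pmelb from 85.2 ± 5.94 to 8.88 ± 1.29 CPM. Their regulator MITF (ENSDARG00000003732) fell from 8.13 to 0.545 CPM, whereas the other MITF gene (ENSDARG00000037833) stood at 2.08 ± 0.167 against 2.27 ± 0.373 CPM (adjusted p = 0.648). Of 16 genes, 12 were at least 2-fold lower (median -2.25); the exceptions were KIT, at 31.9 ± 2.5 against 30.7 ± 1.62 CPM (adjusted p = 0.609), the other MITF gene, MC1R, lower by 0.85, and trpm1b, which rose from 10.8 ± 1.27 to 36.9 ± 0.193 CPM and is a channel gene of melanophores and of retinal bipolar cells. Genes of yellow and iridescent pigment cells were divided. Beside 34.6% and 33.0% of all genes tested, 9 of 22 were higher and 12 lower. At least 2-fold were 6 of each, beside 18.3% and 8.53% of all genes. Of those that fell, gch2, the first enzyme of pteridine synthesis, fell from 307 ± 66.6 to 22.9 ± 1.12 CPM and PTS by 2.2, and the purine synthesis genes PAICS, ATIC and GART by 2.05, 1.99 and 1.74. Of those that rose, the carotenoid-cleaving BCO1 went from 16.3 to 66.5 CPM and the xanthine dehydrogenase XDH from 26 to 80 CPM. Of 17 neural crest genes tested, 15 were lower and none higher; the lineage factor SOX10 fell by 0.98 and a SOX9 gene (ENSDARG00000043923) by 1.73.

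Globin genes fell. The alpha globin hbae3 (ENSDARG00000079305) stood at 1749, 1527 and 2341 CPM at 48 hpf and 327, 279 and 196 CPM at 5 dpf (log2 fold change -2.81, SE 0.21, adjusted p = 5.43e-07), and the beta globin hbbe3 (ENSDARG00000038147) at 309, 249 and 448 CPM at 48 hpf and 0.132, 0 and 0.234 CPM at 5 dpf (log2 fold change -11.36, SE 0.43, adjusted p = 1.93e-08). Among 6 globin genes tested, 5 were at least 2-fold lower, and hbae5 stood at 5.69 ± 1.42 against 7.4 ± 5.76 CPM (adjusted p = 0.624). The adult globins hbaa1 and hbaa2 had at most 18 and 1 reads in a library. The heme enzyme alas2 fell from 149.9 ± 7.22 to 25.7 ± 9.01 CPM and the anion exchanger SLC4A1 (ENSDARG00000012881) from 224 to 73.3 CPM. Structural genes of the red cell membrane fell less or rose: SPTB was lower by 0.39, and an ANK1 gene (ENSDARG00000074777) higher by 0.98. Of 23 erythroid genes tested, 10 were at least 2-fold lower and none at least 2-fold higher.

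Muscle genes took 6.57% of the reads at 48 hpf and 12.3% at 5 dpf. The giant sarcomere protein titin (TTN, ENSDARG00000000563) stood at 2796, 2914 and 1397 CPM at 48 hpf and 25753, 26319 and 26450.1 CPM at 5 dpf (log2 fold change 3.47, SE 0.26, adjusted p = 2.19e-07) and the second TTN gene (ENSDARG00000028213) rose by 3.34; the pair took 0.462% of the reads at 48 hpf and 5.12% at 5 dpf. All 4 fast myosin heavy chain genes myhz1.1, myhz1.2, myhz1.3 and myhz2 rose by 1.14 to 1.71, though such close copies share reads that the counting could split or drop. Alpha-actin actc1b stood at 10267 ± 1737 against 11942 ± 1227 CPM (adjusted p = 0.249, and 0.0224 without replicate 2 of 48 hpf), and a troponin T gene TNNT3 (ENSDARG00000030270) fell from 708 ± 78.7 to 125 ± 5.38 CPM. The parvalbumins pvalb1 and pvalb2 had log2 fold changes of 0.039 and 0.0044 (adjusted p = 0.83 and 0.978). Of 62 muscle genes tested, 27 were higher and 19 lower, 16 and 5 of them at least 2-fold. Over all genes tested, 34.6% were higher and 33.0% lower, and 18.3% and 8.53% were so at least 2-fold. In the fit of all 24 libraries, 8 muscle genes were lower.

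**Figure D4:**
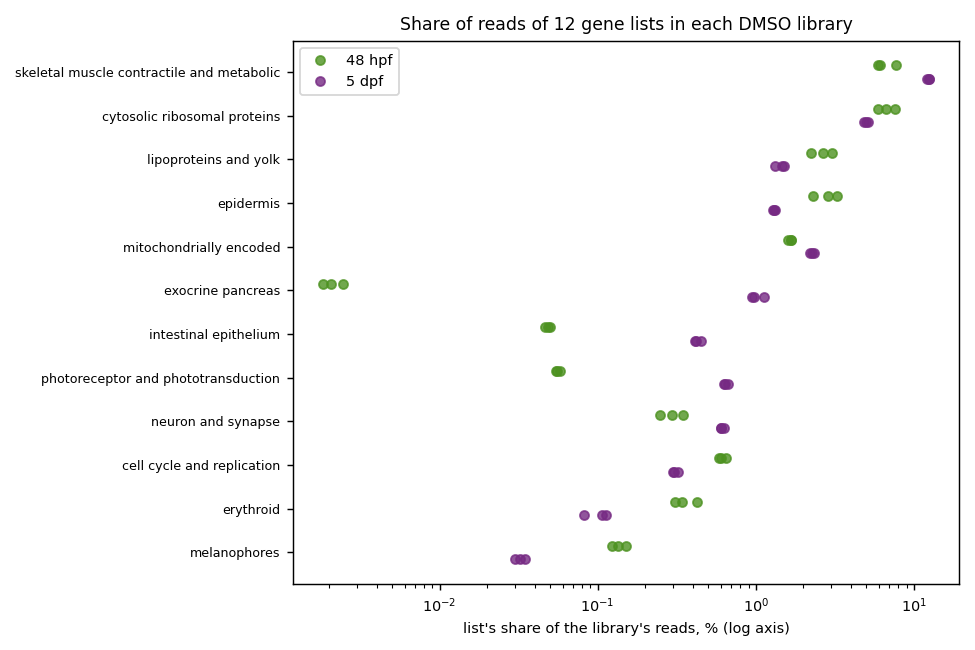
Percent of each DMSO library's reads that fell on the genes of 12 lists, on a log axis, with 3 dots for 48 hpf (green) and 3 for 5 dpf (purple). The exocrine pancreas list went from 0.00211% to 1.02% of the reads on average and the muscle list from 6.57% to 12.3%.

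Skeletal genes moved in both directions. Of 29 cartilage genes tested, 11 were higher and 9 lower. Of 21 bone genes tested, 4 of them through 5 dpf alone, 8 were higher and 6 lower. These counts lie near the 34.6% higher and 33.0% lower of all genes tested. The cartilage matrix gene MATN1 (ENSDARG00000030215) stood at 12, 14.8 and 9.42 CPM at 48 hpf and 204, 232 and 199 CPM at 5 dpf (log2 fold change 4.13, SE 0.15, adjusted p = 1.82e-10), and the aggrecans acana and acanb rose by 1.23 and 1.22. The early matrix linker hapln1a fell from 541 ± 25 to 145 ± 9.25 CPM, and both SOX9 genes, the factors of chondrocyte fate, fell by 1.15 and 1.73. Collagen COL10A1 (ENSDARG00000054753) rose from 66.8 to 305 CPM and the bone matrix gene spp1 from 0.419 to 14.6 CPM, while the osteoblast factor SP7 stood at 5.96 ± 0.379 against 5.7 ± 0.409 CPM (adjusted p = 0.705). The collagen chaperone SERPINH1 (ENSDARG00000019949) stood at 305, 262 and 292 CPM at 48 hpf and 34.3, 45.7 and 27.8 CPM at 5 dpf (log2 fold change -2.99, SE 0.16, adjusted p = 1.45e-08), and the prolyl hydroxylase P4HA1 (ENSDARG00000071082) fell from 78.3 ± 13.7 to 8.55 ± 0.922 CPM. Of 20 collagen processing genes, 8 were at least 2-fold lower and 2 at least 2-fold higher, LOX (2.52 to 11.8 CPM), which cross-links collagen, and pcolceb (0.12 to 6.36 CPM). Of all genes tested, 8.53% were at least 2-fold lower and 18.3% at least 2-fold higher.

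Hox genes fell. Of 47 hox genes, which set position along the body axis, 43 were lower, 15 of them at least 2-fold, and none was higher; the median was -0.77. The largest fall was that of hoxb6b (ENSDARG00000026513), at 20.7, 20.5 and 22.2 CPM at 48 hpf and 5.07, 6.01 and 7.03 CPM at 5 dpf (log2 fold change -1.82, SE 0.13, adjusted p = 5.09e-08). Genes of paralog groups 1 to 8 and 9 to 13 held 23 of 25 and 20 of 22 lower genes. Among signalling ligands and segmentation genes, 25 of 43 tested were lower and 8 higher. The growth factor gdf11 fell from 14.4 ± 0.856 to 1.82 ± 0.361 CPM, and 10 genes, among them the segmentation genes her1 and her7, had too few reads to test.

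Enzymes that handle foreign compounds and bile acids mostly rose. The intestinal and hepatic cytochrome cyp3a65 (ENSDARG00000103295) stood at 1.2, 0.828 and 1.85 CPM at 48 hpf and 493, 363 and 513 CPM at 5 dpf (log2 fold change 8.46, SE 0.24, adjusted p = 6.7e-11), and CYP7A1, the rate-limiting enzyme of bile acid synthesis, went from 0.158 to 58.6 CPM. The bile salt pump ABCB11 rose from 1.44 to 38.4 CPM and the sulfotransferase sult1st3 was at least 403-fold higher, with no read at 48 hpf. Within the cyp2aa cluster, genes moved both ways: cyp2aa9 fell 48.1-fold (35.8, 27 and 38 CPM at 48 hpf and 0.461, 1.09 and 0.547 CPM at 5 dpf; adjusted p = 1.12e-09) and cyp2aa4 26.6-fold, while cyp2aa12 rose from 0.426 to 11.4 CPM. Of the 63 genes of the list, 45 were higher and 10 lower, 19 having been tested through 5 dpf alone. At least 2-fold higher were 36 and at least 2-fold lower 7, beside 18.3% and 8.53% of all genes tested. CYP1A1, the target of the aryl hydrocarbon receptor, rose from 16.1 ± 4.58 to 28.3 ± 1.47 CPM (adjusted p = 0.00215), a call that was lost in the fits of 15 and 24 libraries (adjusted p = 0.142 and 0.0969).

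Most genes of sterol synthesis rose. Of 25 genes tested, 21 were higher, 14 of them at least 2-fold, and 1 was lower. The methylsterol oxidase MSMO1 (ENSDARG00000055876) stood at 3.4, 4.49 and 6.68 CPM at 48 hpf and 72.9, 84.2 and 68.7 CPM at 5 dpf (log2 fold change 3.95, SE 0.18, adjusted p = 1.23e-08), higher in all larvae than in all embryos. The cyclase LSS rose from 2.12 to 21.2 CPM and the reductase DHCR7, of the last step to cholesterol, from 13.7 to 50.6 CPM, while the regulator srebf2 stood at 46.6 ± 8.48 against 53.2 ± 7.82 CPM (adjusted p = 0.246).

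The same age step in fish exposed to 0.3 nM PCB126, which shares no library with the DMSO comparison, gave 3700 genes at least 2-fold higher (17.4% of 21270) and 1714 at least 2-fold lower (8.06%). Of the DMSO genes changed at least 2-fold, 3316 higher (85.7% of the DMSO list, 89.6% of the other) and 1469 lower (81.3% and 85.7%) were also called at least 2-fold in the same direction there. None was so in the opposite direction. List medians had the same sign in 47 of 49 lists and differed by a median of 0.105 on the log2 scale. The exceptions in sign were the macrophage list (-0.096 in DMSO, 0.11 in 0.3 nM) and nuclear oxidative phosphorylation (-0.14 and 0.016), both close to 0. The germ cell list differed most (1.49 and 0.38), with 12 genes tested, 7 of them through 5 dpf alone.

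**Figure D5:**
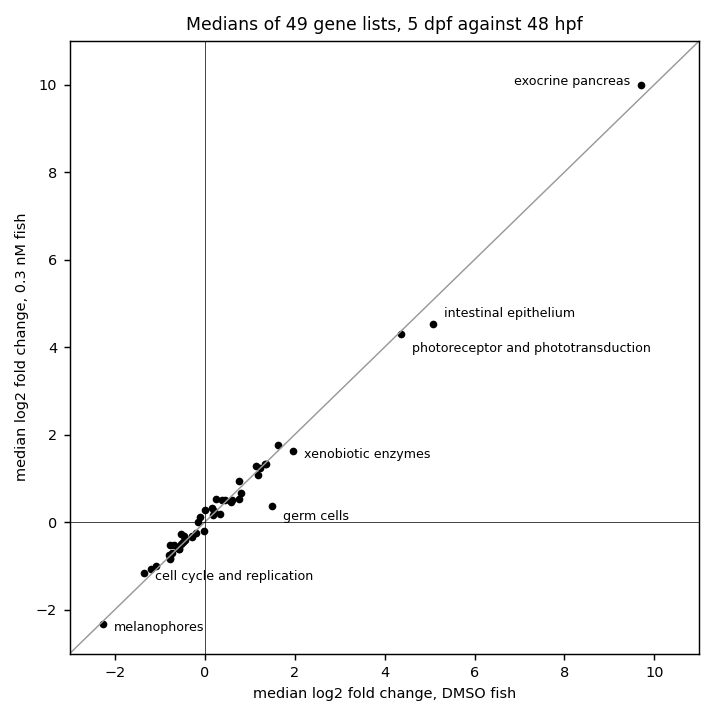
Median log2 fold change (5 dpf over 48 hpf) of the tested members of 49 gene lists in DMSO fish (horizontal) and in fish exposed to 0.3 nM PCB126 (vertical), one dot per list; the grey line marks equal values. The lists lie along the line, with germ cells, 1.49 against 0.38, farthest below it.

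Whether the age difference itself depended on exposure was tested as the interaction of age and exposure over the 12 libraries. None of 21763 genes was called (0%); 1031 had an unadjusted p under 0.05, and DESeq2's test of the same term called 2, cyp1c1 and mt-atp8. The CYP1 gene cyp1c1 rose with age in DMSO fish, from 11.5 ± 1.27 to 19.4 ± 0.716 CPM, a call that was lost in the fits of 15 and 24 libraries (adjusted p = 0.0616 and 0.0729). In exposed fish it went from a mean of 52.8 to 29.2 CPM (interaction -1.61 on the log2 scale, SE 0.26; adjusted p = 0.343 in edgeR and 1.89e-05 in DESeq2). The mitochondrial mt-atp8 stood at 34.6, 37 and 29.8 CPM at 48 hpf and 59.9, 54.9 and 60.3 CPM at 5 dpf in DMSO fish, a rise (log2 fold change 0.79, SE 0.095, adjusted p = 8.7e-06), and had means of 44.2 and 39.6 CPM in exposed fish (interaction -0.94, adjusted p = 0.283 in edgeR and 0.00214 in DESeq2). Leaving out 1 library at a time gave 0 to 3 calls, 3 without replicate 2 of 48 hpf 0.3 nM (cyp1c1, rs1a and slc1a8a) and 1 each without replicate 1 (mt-atp8) or 2 (cyp1c1) of 5 dpf 0.3 nM.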

How the data were processed

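Whole fish were sequenced as ribosome-depleted, strand-specific, single-end libraries, per the labels' protocols. The deposited values are raw read counts per Ensembl gene that the authors made with STAR and HTSeq on GRCz10, per the submitters' processing notes; their versions were not given in the sources used here. Counting could split or drop reads of near-identical copies. Symbols came from a gene names table (26269 of 32105 genes). No coordinates or sequences were used. The 6 DMSO libraries were fitted with edgeR 4.0.16 (TMM scaling, filterByExpr with a minimum count of 10, robust quasi-likelihood test, Benjamini-Hochberg adjustment), and the 0.3 nM libraries and the age by exposure interaction likewise. A gene was called at an adjusted p under 0.05. SE is the log2 fold change divided by the root of F. Scripts were tested on simulated counts. P-values measure the spread between these libraries.

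Gene lists and members were chosen with earlier results of these data known. Named genes were drawn from a rule: the 15 largest called rises and the 15 largest falls whose mean log2 CPM reached 1, with groups that do not overlap and no clone name, and per list the first 4 tested members and the largest change each way. For those largest rises and falls, separate libraries were a condition of being named and are no further result. Of all genes tested, 71.8% had them. Not every gene of the rule is printed, some results are not reported here, and named genes outside it were chosen after their values were seen. Alternatives were other scalings, filters, DESeq2 1.42.0, wider fits, a replicate block and leaving out each library.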

Additional observations from a re-analysis of the deposited data

How the results depend on the processing

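The DMSO comparison called 12962 to 14481 genes when single libraries were left out, with 6776 to 7422 higher, 6186 to 7059 lower, 3886 to 4048 at least 2-fold higher and 1800 to 1911 at least 2-fold lower. The other settings called 13095 (DESeq2) to 15014 (no low-count filter). Total-count scaling moved the median of all genes from -0.00155 to 0.067 and the share of calls that were higher from 51.2% to 56%. A block for replicate number gave 14193 calls. Libraries of equal number at the 2 ages departed together little or not at all (correlations -0.00261 to 0.0375, mean of the other pairs -0.0106). Of these, 2 of 3 correlated best with their own number. With only 3 libraries an age, such values cannot decide whether the numbers pair the libraries. The 0.3 nM comparison called 12402 to 13832 genes with single libraries left out, 12769 to 14343 in other settings and 13178 with the block; its same-numbered libraries correlated at -0.108 to -0.000786. The interaction called 0 genes with the block, 0 to 3 with single libraries left out, 1 with no low-count filter and 2 in DESeq2. No value of a named gene changed direction; over all settings, 4584 gene values stayed on their side of the threshold, 44 passed it and 108 lost it, and 716 list medians moved little and 67 moved more. The counts of lists that 1 library or setting moved by over 1.5 times include lymphoid genes higher (5 to 8 without replicate 1 of 5 dpf), neutrophil genes lower (8 to 5 without replicate 1 of 5 dpf), ionocyte genes lower (3 to 6 without replicate 2 of 48 hpf) and germ cell genes at least 2-fold lower (3 to 1 without replicate 3 of 48 hpf). The cause was not tested. The number of libraries (3 an age) and the lower depth at 5 dpf limit genes of few reads.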

Other observations

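Other organ lists held smaller or mixed changes; of all genes tested, 34.6% were higher and 33.0% lower. Among kidney genes, several transporters of the tubule rose, among them the sulfate transporter SLC13A1 (0.624 to 22.9 CPM) and the salt cotransporters SLC12A1 (3.82 to 9.35 CPM) and SLC12A3 (9.97 to 24.6 CPM), while an SLC4A2 gene (ENSDARG00000028173) fell by 0.25 on the log2 scale and PAX8, a factor of kidney formation, fell from 13.2 ± 1.81 to 4.16 ± 0.294 CPM. Of 30 kidney genes tested, 14 were higher and 10 lower, 9 and 3 of them at least 2-fold (18.3% and 8.53% of all genes tested). Endothelial genes were lower in 21 of 32 cases and higher in 1, the clotting factor gene vwf (1.45 to 5.15 CPM); the scavenger receptor stab2 fell from 37.9 ± 1.4 to 12.9 ± 0.329 CPM, and kdrl, the endothelial growth factor receptor, by 0.51 on the log2 scale. Cardiac genes fell in 11 of 21 cases and rose in 2, with the natriuretic peptides nppa and nppb lower by 2.01 and 2.49 and the atrial myosin myh6 by 1.09. Of 20 notochord genes tested, 14 were lower, emilin3a most (42.8 to 3.64 CPM). Among myogenic regulators, the slow-fibre factor PRDM1 fell from 36.6 ± 2.49 to 8.29 ± 0.34 CPM, and 10 of 18 genes were lower and 5 higher.

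Immune and hormone lists were low in reads, and many members could not be tested. RAG1, the recombinase of lymphocytes, rose from 1.25 ± 0.053 to 7.85 ± 0.541 CPM. Of 10 lymphoid genes tested, 5 were higher and 2 lower, and 4 of the higher ones were tested through 5 dpf alone. The neutrophil genes lyz and npsn fell by 1.78 and 1.17. Of 15 neutrophil and inflammation genes tested, 8 were lower and 2 higher, beside 33.0% and 34.6% of all genes tested. The 2 higher genes were NCF1 (1.02) and CSF3R (0.70). Of 10 interferon response genes tested, 7 were higher, stat2 by 1.57 on the log2 scale, and 1 lower, the antiviral mxc, by 1.88 (median of the list 1.34). Of the macrophage list, an MPEG1 gene (ENSDARG00000043093) rose from 1.65 to 10.3 CPM. Another MPEG1 gene (ENSDARG00000055290) stood at 8.49 ± 1.86 against 7.92 ± 0.112 CPM (adjusted p = 0.598). Of 17 macrophage genes tested, 7 were higher (the share of all genes is 34.6%) and 3 lower, with a median of -0.096. Among blood progenitor genes, MYB stood at 18.6 ± 1.6 against 20.9 ± 1.02 CPM (adjusted p = 0.154), and 3 genes were higher and 4 lower of 10, near the shares of all genes tested. The 3 higher genes were tested through 5 dpf alone. Growth hormone (gh1) rose from 1.34 ± 0.313 to 13.8 ± 3.2 CPM, thyroglobulin (TG) from 2.16 ± 0.234 to 13.8 ± 1.74 CPM and the deiodinase DIO1 from 2.02 ± 0.358 to 24.3 ± 2.72 CPM, while duox, an oxidase, fell from 24.8 ± 4.11 to 2.34 ± 0.304 CPM. Of 19 genes of the pituitary, thyroid and interrenal tested, 4 of them through 5 dpf alone, 7 were higher, near the share of all genes, and 3 lower. Among olfactory genes, OMP (ENSDARG00000105218) rose from 0.948 to 4.95 CPM, and 6 of 11 genes were higher. Another OMP gene (ENSDARG00000032380) stood at 1.08 ± 0.536 against 1.16 ± 0.218 CPM (adjusted p = 0.822). Of 28 heat shock genes, 5 were higher and 12 lower, with the stress-induced hsp70l at 3.53 ± 0.376 against 3.17 ± 0.739 CPM (adjusted p = 0.543).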
